A study of Mus musculus with 29 samples.

Results

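GR binding in the livers of GRdim mice was compared between 6pm, the start of the dark phase, and 6am, the start of the light phase. All peaks of the 2 GRdim ChIP-seq lists and all nuclear borders of the 2 GRdim ChIP-exo lists were used, without selection by value. The 6pm list held 7440 peaks and the 6am list 3183, together 10623 of the 38186 peaks in the 6 GR lists of the study. The ChIP-exo lists held 34812 nuclear borders at 6pm and 13552 at 6am, of 250558 in 6 lists. GRdim mice carry a mutation of GR known to impair its dimerization. They were untreated males of 12 weeks, back-crossed to BALB/c over 4 or more generations and kept on a 12 h light cycle. Their GR+/+ litter mates (WT), collected at the same 2 times, serve for comparison here, as do GRdim livers taken at 6am after 24 h with prednisolone pellets. The C/EBPβ lists used here are of WT livers. Each list was made from 1 pool of 2 replicates, and the GR lists with 2 GR antibodies. Each time is therefore 1 measurement, no p-value is given, and the 95% intervals cover the counting of peaks or tags only. The sources used here do not give the number of animals in a pool. In whole liver, a change in the share of cells that bind GR and a change in binding per cell cannot be told apart.

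GR, the glucocorticoid receptor, is a nuclear receptor that enters the nucleus and binds DNA when occupied by corticosterone, the main glucocorticoid of the mouse. Blood corticosterone in nocturnal rodents is high around the start of the dark, active phase and low around the start of the light phase. GR binds as a dimer to palindromic elements, and can also be recruited as a monomer or through other factors, such as C/EBPβ, a transcription factor abundant in hepatocytes. In ChIP-exo an exonuclease trims the precipitated DNA from its 5′ ends up to the crosslinked protein, so a bound site leaves a border of tags on each strand.

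ChIP-seq peaks were 200 bp intervals with a score from the authors, in a unit the sources used here do not give, which was used only to rank or filter peaks within a list. Scores reached 15.67 at 6pm and 14.90 at 6am, with medians of 2.88 and 2.71, and none of the lists went below 2.00. ChIP-exo borders were 10 bp intervals on 1 strand with a tag count and an RPM value, the count scaled to the size of the library. The GRdim libraries held 43.8 M tags at 6pm and 31.6 M tags at 6am, and the median border held 12 tags at 6pm (exact Poisson interval 6.20 to 21.0) and 11 tags at 6am (5.49 to 19.7). Borders on the mitochondrial genome, left out throughout, took 28.9% of the listed tags at 6pm and 74.6% at 6am, and their part in the results below was not tested. Positions are in mm9, counted from 1. No mm9 annotation or sequence was used here, so regions carry no gene name and the liver label was not checked against marker genes.

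In GRdim livers, GR was listed at more regions at 6pm than at 6am, and the regions gained mostly had low scores. The 6pm list held 2.34 times as many peaks as that of 6am. In WT the ratio was 2.47, with 14270 peaks at 6pm and 5781 at 6am, so the excess at 6pm was not particular to GRdim. Of the GRdim 6pm peaks, 4482 overlapped no GRdim 6am peak by 1 bp or more (60.2%, 59.1 to 61.3) and are called 6pm-only. Of the GRdim 6am peaks, 225 overlapped no GRdim 6pm peak (7.07%, 6.23 to 8.01) and are called 6am-only. The other 2958 regions were listed at both times. The 6pm-only peaks had a median score of 2.49, at percentile 32.9 of their list, while the shared regions had a median of 3.93 at 6pm, at percentile 76.7. The 6am-only peaks lay at a median of 2.31, percentile 25.4 of the 6am list, where the shared regions lay at 2.75, percentile 52.0.

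The highest-scoring regions were listed at both times. All of the 100 highest-scoring 6pm peaks had a 6am peak, and all of the 100 highest-scoring 6am peaks had a 6pm peak. The order within them differed, as 47 regions were among the first 100 of both lists and 3 among the first 10. With the 6pm list divided by score into bins of about 10%, the share also listed at 6am was 93.8% (91.9 to 95.3) in the highest bin, 50.7% (47.1 to 54.3) in the fourth and 7.48% (5.80 to 9.58) in the lowest. In such bins of the 6am list, the share listed at 6pm was 100% (98.8 to 100) in the highest and 83.0% (78.5 to 86.8) in the lowest, so the longer list held most of the weakest 6am regions too. These shares depend on the lengths of the lists, and with the 6pm list shortened to its 3183 highest-scoring peaks 70.8% were shared in either direction. Between the WT lists 39.5% (38.7 to 40.3) of the 6pm peaks were listed at 6am, and the difference of GRdim minus WT was 0.256 points (-1.11 to 1.63). It was 7.22 points among 6pm peaks scoring at least 3 and -7.83 points with lists of equal length, so the order of the genotypes depended on how the lists were cut.

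ChIP-exo graded the same peaks in a second assay, with 2.57 times as many GRdim borders at 6pm as at 6am. A 6pm border lay within 100 bp of the centre of 99.9% of peaks in the highest bin of the 6pm list and of 55.0% in the lowest. A 6am border lay at 89.0% of the highest bin and at 17.0% of the lowest. In the lowest 5 bins of the 6pm list the share with a 6am border, 34.9% to 17.0%, was above the share with a 6am peak, 24.0% to 7.48%.

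**Figure D1:**
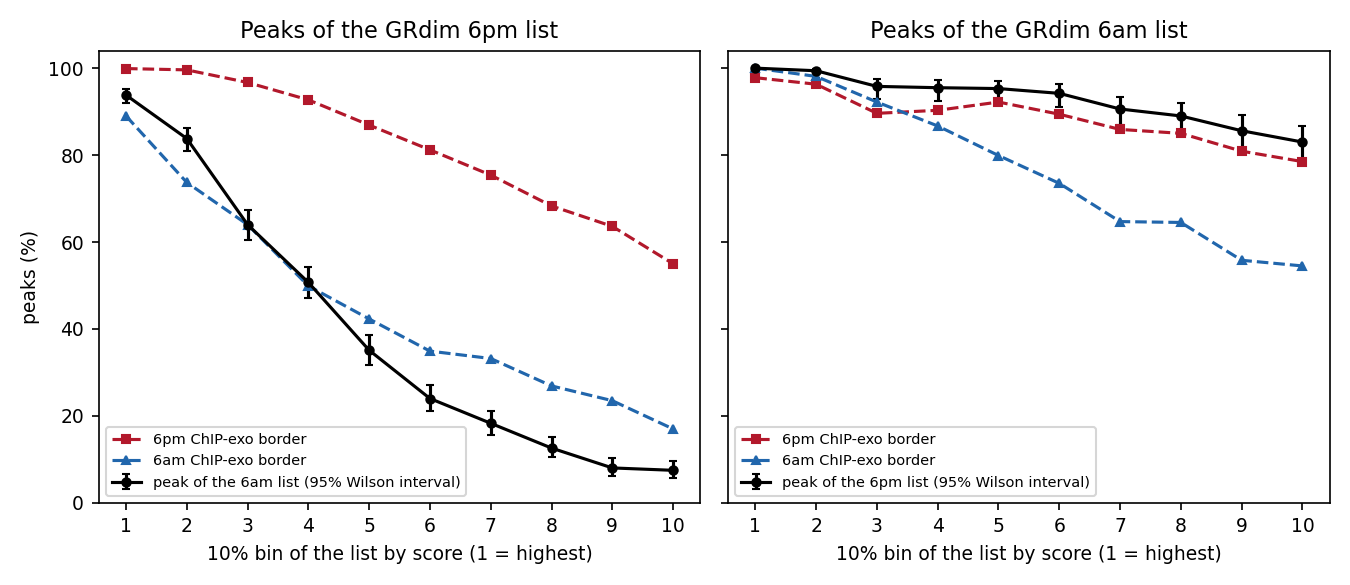
Share of GRdim peaks (y axis, %) that have a peak in the list of the other time (black, with 95% Wilson intervals), a 6pm ChIP-exo border (red) or a 6am border (blue), by 10% bin of the 6pm list (left) and of the 6am list (right) from the highest score to the lowest. For the 6pm list the black line falls from 93.8% to 7.48%, while for the 6am list it stays at or above 83.0%.

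The 6pm-only peaks were mainly WT regions of 6pm. The WT 6pm list held 4141 of the 4482 (92.4%, 91.6 to 93.1), and 98.1% (97.5 to 98.5) of the shared regions. The WT 6am list held 37.2% (35.8 to 38.7) of the 6pm-only peaks and 88.1% (86.8 to 89.2) of the shared regions, a difference of -50.8 points (-52.6 to -49.0). So 55.4% (53.9 to 56.8) of the 6pm-only peaks were in WT listed at 6pm and not at 6am, as 10.6% (9.59 to 11.8) of the shared regions were, and 37.0% (35.6 to 38.5) were listed in WT at both times. Only 9 were in WT at 6am alone, and 332 (7.41%, 6.68 to 8.21) were in neither untreated WT list. Of the 4141 listed in WT at 6pm, 40.1% (38.6 to 41.6) were also listed in WT at 6am. That share was close to the 39.5% of all 14270 WT 6pm peaks, so it was not particular to the 6pm-only peaks.

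The difference between 6pm-only and shared peaks in WT at 6am was present in each bin of 20% by score. In the highest 20% of the 6pm list, with scores of at least 4.18, the WT 6am list held 62.7% of 166 6pm-only peaks and 96.1% of 1319 shared peaks. Scores in that bin reached 7.73 in 6pm-only and 15.67 in shared peaks, so they were not equal within it. In a lower bin of the same width, with scores of 2.28 to 2.63, the WT 6am list held 32.3% of 1320 and 71.8% of 241. The WT 6pm list, by contrast, held 95.2% of 6pm-only and 99.7% of shared peaks in the highest bin and 88.1% and 85.7% in the lowest.

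Borders of the 6pm library marked 75.1% (73.8 to 76.3) of the 6pm-only peaks and 92.3% (91.3 to 93.2) of the shared regions. Borders of the 6am library marked 24.1% (22.9 to 25.4) of the 6pm-only peaks and 77.8% (76.3 to 79.3) of the shared regions. With borders required on both strands, 37.2% (35.8 to 38.6) of the 6pm-only peaks were marked at 6pm and 4.77% (4.19 to 5.44) at 6am. Where marked at all, a 6pm-only peak held a median of 2 borders with 0.525 summed RPM at 6pm and 1 border with 0.348 summed RPM at 6am. Shared regions held a median of 5 borders and 1.58 summed RPM at 6pm, and 2 borders and 0.886 summed RPM at 6am.

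Other libraries of 6am marked the 6pm-only peaks more often than the GRdim 6am library did. Borders of the WT 6am library were found at 74.7% (73.4 to 76.0) of them and at 98.0% (97.4 to 98.5) of the shared regions. Borders of GRdim livers after prednisolone were found at 66.6% (65.2 to 68.0) and 91.6% (90.6 to 92.6). These libraries also listed more nuclear borders, with 34348 in GRdim after prednisolone and 65707 in WT at 6am, against 13552 in untreated GRdim at 6am. The ChIP-seq list of GRdim after prednisolone, which was about as long as that of untreated 6am with 3208 peaks, held 20.5% (19.3 to 21.7) of the 6pm-only peaks and 69.0% (67.3 to 70.6) of the shared regions. At the 2813 6pm-only peaks that the WT 6am list also lacked, a WT 6am border was found at 62.2% (60.4 to 63.9) and a GRdim 6am border at 17.3% (16.0 to 18.8). The 3 libraries of 6am differed in size and in mitochondrial share, with 31.6 M tags and 74.6% in untreated GRdim, 45.2 M tags and 54.2% in GRdim after prednisolone, and 55.7 M tags and 28.6% in WT; the part of these differences was not tested.

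C/EBPβ was listed in WT livers at most regions of either kind. At 6pm, 86.8% (85.8 to 87.8) of the 6pm-only peaks and 93.6% (92.6 to 94.4) of the shared regions held a C/EBPβ peak, and at 6am 72.1% (70.8 to 73.4) and 87.7% (86.5 to 88.8) did. Within bins of score the 6pm shares were close in the lower 3 of the 5 bins of 20%, with 88.0%, 86.8% and 82.8% of 6pm-only peaks and 86.9%, 85.5% and 82.1% of shared peaks. In the highest and second bins they were 89.2% and 92.6% of 6pm-only peaks and 96.9% and 95.6% of shared peaks. The 6am shares were lower in 6pm-only peaks in all 5 bins, with 72.9% against 92.3% in the highest and 65.5% against 74.1% in the lowest. A C/EBPβ peak present at 6pm and absent at 6am lay at 15.4% (14.4 to 16.5) of the 6pm-only peaks and 6.69% (5.85 to 7.65) of the shared regions. Among regions with no C/EBPβ peak at 6am, however, the share with one at 6pm was 55.2% (52.4 to 57.9) for 6pm-only peaks and 54.4% (49.3 to 59.4) for shared regions. C/EBPβ in GRdim livers was not analysed here.

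**Figure D2:**
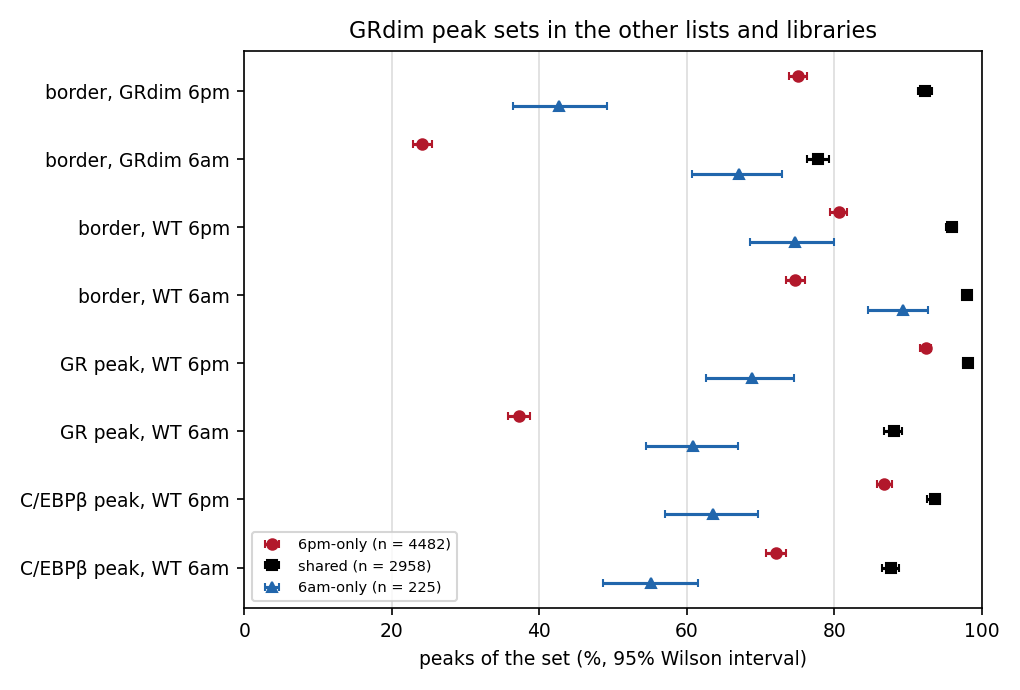
Share (x axis, %, with 95% Wilson intervals) of GRdim 6pm-only peaks (red), shared regions (black) and 6am-only peaks (blue) that hold a ChIP-exo border or a GR or C/EBPβ ChIP-seq peak of the library named on the y axis. The widest gap between 6pm-only and shared regions among those plotted is for the GRdim 6am borders, at 24.1% and 77.8%, and the WT 6pm list holds 92.4% and 98.1%.

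The 5 highest-scoring 6pm-only peaks differed in what the other data held. All 5 were listed in GRdim after prednisolone, as were 20.5% of all 6pm-only peaks. The prednisolone scores of the 5 were, in order, 6.62, 7.51, 2.49, 3.35 and 6.84. The first, at chr2:146152496-146152695, scored 7.73 at 6pm, rank 121, and its nearest 6am centre was 259728 bp away. It held 10 borders at 6pm, the strongest with 72 tags on the plus and 45 on the minus strand, and 1 border of 8 tags at 6am. WT livers listed it at 6pm with a score of 3.80 and not at 6am. The second, at chr10:7494141-7494340, scored 7.45 at 6pm and 7.51 in GRdim after prednisolone, and was in no WT list and in no C/EBPβ list of either untreated time. It held 12 borders at 6pm and none at 6am. Both regions were near empty in the untreated WT ChIP-exo libraries, which listed no border at either at 6pm and 1 border at each at 6am.

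The other 3 were WT regions of both times. At chr2:25328168-25328367 the score was 7.38 in GRdim at 6pm, and 10.01 at 6pm and 4.49 at 6am in WT, with 13 GRdim borders at 6pm and 3 at 6am. At chr10:76579343-76579542 it was 6.95, and 7.93 and 3.69 in WT, with 11 GRdim borders at 6pm and 4 at 6am. At chr7:46458376-46458575 it was 6.85, and 8.88 and 6.39 in WT. This region lacked a 6am peak within 841274 bp, and yet its ChIP-exo borders were strong at both times. There were 9 borders at 6pm, led by 121 tags (2.76 RPM) and 71 tags (1.62 RPM) 20 bp apart, and 8 borders at 6am, led by 63 tags (1.99 RPM) and 49 tags (1.55 RPM) 23 bp apart. For this region the ChIP-seq list and the ChIP-exo library of GRdim at 6am differed.

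Few regions were listed at 6am alone, and they were less often C/EBPβ regions. Of the 225, WT livers listed 68.9% (62.6 to 74.6) at 6pm and 60.9% (54.4 to 67.0) at 6am, and neither time for 50 (22.2%, 17.3 to 28.1). A C/EBPβ peak was found at 63.6% (57.1 to 69.6) of them at 6pm and at 55.1% (48.6 to 61.5) at 6am. Borders of the 6pm GRdim library marked 42.7% (36.4 to 49.2) and those of the 6am library 67.1% (60.7 to 72.9). Of the 6am-only peaks, 13.8% had a 6pm centre within 500 bp, as 1.70% of the 6pm-only peaks had a 6am centre so near, so some lay just outside the overlap that counted as shared. The 2 shares depend on list length, with 7440 peaks searched at 6pm and 3183 at 6am.

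The highest-scoring 6am-only peak, at chr11:93996210-93996409, scored 4.38, rank 374 of the 6am list, and its nearest 6pm centre was 424 bp away. No border was listed there at 6pm, and 5 at 6am, the strongest with 19 and 17 tags 9 bp apart. WT livers listed it at both times, with scores of 4.68 at 6pm and 5.67 at 6am. The next, at chr9:46038265-46038464, scored 4.20 and was in no other GR list and in no untreated C/EBPβ list, but held 5 borders at 6pm and 3 at 6am. The other 3 scored between 3.65 and 3.76, and the 6pm library listed 2 borders at chr10:127303451-127303650 and none at chr16:23326722-23326921 or chr8:35038018-35038217.

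Regions of both times kept their place and only in part their order, with 1 list per time and no replicate list to compare with. The paired peak centres lay a median of 15 bp apart, and 91.6% lay within 50 bp. Spearman's rank correlation of the scores was 0.617 over the 2958 regions, as a description, since regions of 1 list share a library and its depth. Over the 2587 regions that WT also listed at both times it was 0.616 in GRdim and 0.785 in WT. Each region was given its percentile among the shared regions in either list: 37.6% moved by under 10 points, 431 (14.6%) stood at least 25 points higher at 6pm and 429 (14.5%) at least 25 points lower. Percentiles are relative and show no change of binding common to all regions.

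**Figure D3:**
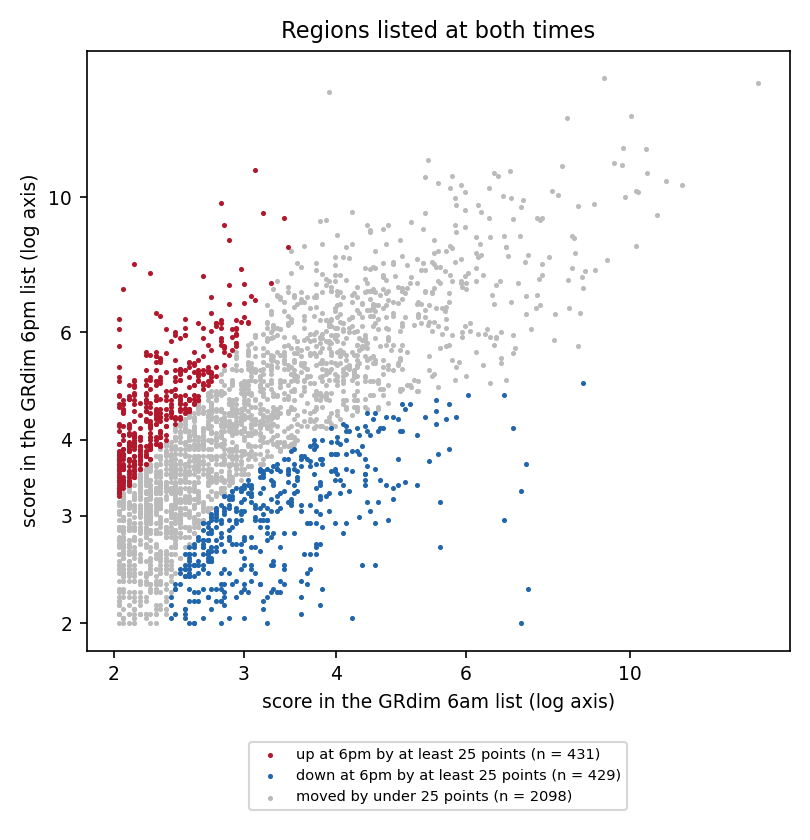
Score of each of the 2958 shared regions in the GRdim 6pm list (y axis) against the 6am list (x axis), both on log axes, with no unit given by the authors. Red points stood at least 25 percentile points higher at 6pm (431), blue points at least 25 points lower (429), and grey points moved less.

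The regions that moved in GRdim tended to move the same way in WT, whose lists are separate measurements. Of the 374 regions higher at 6pm in GRdim that WT listed at both times, 19.8% stood at least 25 points higher in WT and 1.60% at least 25 points lower, beside 8.00% and 9.01% of all 2587 such regions. Their median WT change was 8.64 points and 75.4% of them had a WT change above 0, beside a median of 0.70 points and 53.0% over all 2587. Of the 377 regions lower at 6pm in GRdim, 1.33% stood at least 25 points higher and 31.3% at least 25 points lower in WT, with a median change of -14.5 points, and 19.9% had a WT change above 0. C/EBPβ at 6pm was listed in WT at 96.1% of the regions higher at 6pm, 83.7% of those lower at 6pm and 95.1% of the regions between. The prednisolone list of GRdim held 76.8%, 53.6% and 70.5% of the same classes.

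Regions at the top of both lists included chr2:27480413-27480612, which scored 15.38 at 6pm and 14.90 at 6am, with 18 borders at 6pm and 16 at 6am. Nearby, chr2:27416237-27416436 scored 11.98 and 10.53. The remaining 3, at chr4:150059273-150059472, chr1:182939875-182940074 and chr15:7087662-7087861, scored 10.64, 10.47 and 10.96 at 6pm and 11.18, 11.76 and 10.56 at 6am. Each of the 5 was listed by all 6 GR ChIP-seq experiments and in both untreated C/EBPβ lists. Of all 2958 shared regions, 87.5% were listed in WT at both times, and 69.0% in GRdim and 66.8% in WT after prednisolone. C/EBPβ was listed at 93.6% of the shared regions at 6pm and 87.7% at 6am.

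The largest gains in percentile at 6pm were at regions near the floor of the 6am list. At chr2:167678985-167679184 the score was 7.06 at 6pm and 2.06 at 6am, and at the neighbouring chr2:167677223-167677422 it was 6.32 and 2.03. At chr7:104567317-104567516 it was 7.76 and 2.13, at chr15:82015156-82015355 6.08 and 2.03, and at chr5:130509935-130510134 5.69 and 2.03. ChIP-exo borders were also more numerous at 6pm, with 12, 9, 11, 7 and 8 borders at 6pm in that order and 0, 0, 0, 1 and 2 at 6am. WT moved up as well by 37.2, 62.7 and 58.5 points at the regions on chromosomes 7, 15 and 5, and by 13.4 and 2.90 points at the pair on chromosome 2.

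The largest drops in percentile were also mirrored in the borders. At chr2:144024163-144024362 the score was 2.00 at 6pm and 7.13 at 6am, with no border at 6pm and 13 at 6am, the strongest of 27 and 37 tags 48 bp apart. At chr18:75977462-75977661 it was 2.28 at 6pm and 7.27 at 6am, with 2 and 9 borders. The regions at chr8:10939974-10940173, chr4:149382494-149382693 and chr5:139840652-139840851 scored 2.04, 2.67 and 2.49 at 6pm and 4.20, 5.53 and 4.52 at 6am, with no border at 6pm and 3, 8 and 7 at 6am. WT moved down by over 25 points at 4 of these 5 regions and changed by -1.66 points at the one on chromosome 8. None of the 5 was in the GRdim list after prednisolone, whereas all 5 of the largest gains were.

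A smaller share of single ChIP-exo borders than of ChIP-seq peaks was found again at the other time, under a stricter match. Borders are 10 bp wide and were matched by strand, while peaks are 200 bp wide, so the shares are not directly comparable. Same-strand borders overlapping by at least 1 bp numbered 5620, which is 16.1% (15.8 to 16.5) of the 6pm borders and 41.5% (40.6 to 42.3) of the 6am borders. The unpaired 6pm borders were weaker, with a median of 0.251 RPM against 0.388 RPM for the paired ones. Of the unpaired 6pm borders 84.8% lay in a peak of any of the 6 GR lists, beside 91.0% of the paired and 85.8% of all. In the 6am library, 51.3% of the unpaired and 72.1% of the paired 6am borders lay in a GRdim 6am peak.

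At borders listed at both times, the direction of the change in RPM depended on the scaling. The median ratio of RPM at 6pm over 6am was 0.961 (quartiles 0.723 and 1.26), and it turned to 1.11 when scaled to the 503 paired borders outside every GR peak, whose own median was 0.867. The ratio was at least 1.5 at 13.6% of the paired borders and at most 1/1.5 at 17.8%. After that scaling these shares were 22.1% and 9.82%. The median paired border held 17 tags at 6pm and 12 at 6am, so counting error at a single border is wide.

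The border ratios were higher in regions that stood higher at 6pm and lower in regions that stood lower, under either scaling. In regions higher at 6pm the median ratio was 1.15, with 23.8% of 302 borders at or above 1.5 and 8.61% at or below 1/1.5. In regions lower at 6pm it was 0.784, with 2.70% of 371 borders at or above 1.5 and 34.2% at or below 1/1.5. In the regions between, it was 1.00 over 3317 borders. Scaled to the borders outside GR peaks, the medians were 1.32 in the regions higher at 6pm, 0.904 in those lower and 1.15 between. Of the borders in regions higher at 6pm, 35.1% were then at or above 1.5 and 2.65% at or below 1/1.5, and of those in regions lower at 6pm, 6.74% and 23.7%. Spearman's rank correlation of the percentile change with the border ratio was 0.300 over 3990 borders in 1642 regions, so the relation was weak at single borders, and borders of 1 region share that region's change. A 6pm border was present at 98.6% of the regions higher at 6pm and 78.3% of those lower, and a 6am border at 63.6% and 88.8%.

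**Figure D4:**
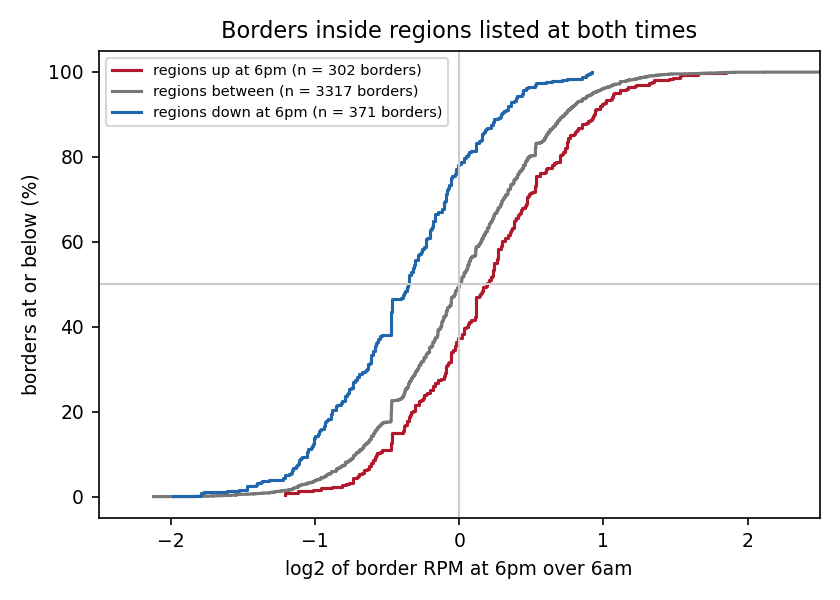
Cumulative share of paired ChIP-exo borders (y axis, %) at or below each log2 ratio of RPM at 6pm over 6am (x axis), in shared regions that stood at least 25 percentile points higher at 6pm (red, 302 borders), lower at 6pm (blue, 371) or between (grey, 3317). The red curve lies to the right and the blue curve to the left, with medians of 1.15 and 0.784 as plain ratios.

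The strongest borders present at both times were close in count. The plus-strand border at chr3:38027419-38027428 held 126 tags at 6pm (exact Poisson interval 105 to 150) and 139 at 6am (117 to 164), and lay 158 and 142 bp from the nearest peak centres. The plus-strand border at chr14:21926022-21926031 held 117 tags at 6pm (96.8 to 140) and 103 at 6am (84.1 to 125), in a region that scored 8.57 and 8.39. The plus-strand border at chr15:39643142-39643151 held 94 (76.0 to 115) and 96 tags (77.8 to 117), in a region that scored 4.95 and 6.47. At similar counts the RPM values were lower at 6pm, at 2.88 RPM against 4.39 RPM for the first, since the 6pm library was larger.

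Strong borders of 1 time alone also lay inside regions of both times. The minus-strand border at chr7:71041974-71041983 held 105 tags at 6pm (85.9 to 127) with no overlapping 6am border, although its region scored 15.67 at 6pm and 9.22 at 6am. The next of the 6pm library, with 72 and 69 tags, were in the first and second 6pm-only regions above. In the 6am library alone, a plus-strand border at chr11:68910545-68910554 held 58 tags in a region that scored 12.05 at 6pm and 9.80 at 6am. A minus-strand border at chr1:124253798-124253807 held 61 tags (46.7 to 78.4) with no GRdim peak within 1008223 bp. The third, at chr19:4579083-4579092, held 56 tags (42.3 to 72.7) 6 bp from the centre of a 6am peak that scored 4.12 and 118 bp from a 6pm centre. A border shifted by 10 bp or more counts as absent here, so absence at 1 position is not absence from the region.

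The spacing of borders describes the footprint left on DNA. The strongest border on each strand within 100 bp of the peak centre was taken, for 3894 peaks at 6pm and 1382 at 6am, and the distance is the minus-strand less the plus-strand position. A spacing of 24 to 26 bp was found at 4.47% (3.86 to 5.16) of the peaks at 6pm and 5.43% (4.35 to 6.75) at 6am, a difference of -0.959 points (-2.41 to 0.322). A spacing of 10 to 12 bp was found at 3.39% (2.87 to 4.01) at 6pm and 5.79% (4.68 to 7.15) at 6am, a difference of -2.40 points (-3.85 to -1.13). In the shared regions alone that difference was -2.36 points (-3.92 to -0.942), and in WT, where the shares were 5.38% and 10.3%, the 6pm value was lower too. The shared regions with both borders numbered 2227 at 6pm and 1330 at 6am, so the sets differed. They also have regions in common, which the interval does not take into account. The times were not compared at equal border strength. In WT livers the commonest distance above 15 bp was 30 bp at both times. A spacing of 24 to 26 bp was found in WT at 2.74% (2.37 to 3.17) of peaks at 6pm and 4.17% (3.65 to 4.76) at 6am. The WT mean per 3 bp between 40 and 60 bp was 2.68% at 6pm and 1.98% at 6am. At 6am the spacing of 24 to 26 bp was therefore not particular to GRdim. The window of 29 to 31 bp held 2.31% at 6pm and 2.39% at 6am in GRdim. These shares were near the mean of 2.61% and 2.40% per 3 bp between 40 and 60 bp.

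The 6pm-only peaks had the spacing of 24 to 26 bp less often than the shared regions. Of the 1667 6pm-only peaks with both borders, 3.66% (2.86 to 4.67) had them 24 to 26 bp apart, as had 5.07% (4.24 to 6.07) of 2227 shared regions, a difference of -1.41 points (-2.69 to -0.101). For 10 to 12 bp the shares were 3.24% and 3.50%, a difference of -0.263 points (-1.39 to 0.920). The commonest distance above 15 bp was 24 bp in both sets. Where marked, the strongest 6pm border had a median of 0.274 RPM in 6pm-only peaks and 0.434 RPM in shared regions. The spacing was not compared at equal border strength or score. Within a region, the strongest border was often another one at the other time. It lay within 9 bp of the same place in 35.2% (32.9 to 37.5) of 1623 shared regions on the plus strand and 36.0% (33.6 to 38.4) of 1576 on the minus strand.

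**Figure D5:**
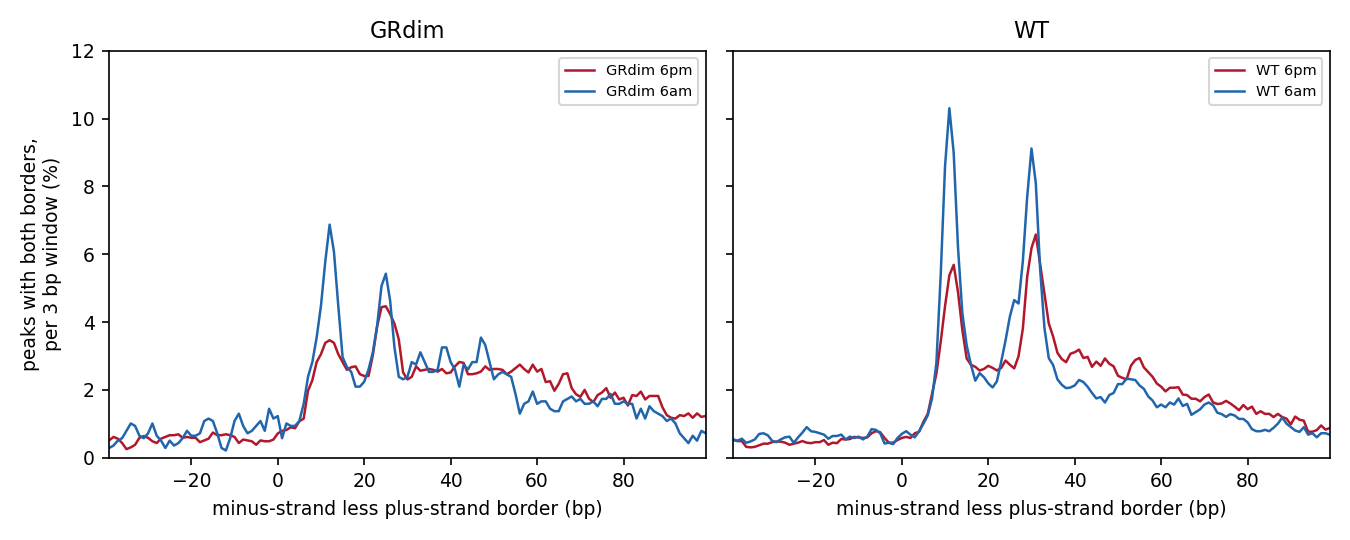
Share of peaks with borders on both strands (y axis, %, in a running window of 3 bp) by the distance from the strongest plus-strand to the strongest minus-strand border (x axis, bp), at 6pm (red) and 6am (blue), in GRdim (left) and WT (right). GRdim shows maxima near 12 and 25 bp at both times, the one near 12 bp being lower at 6pm. WT shows its highest near 11 and 30 bp, and 4.17% of the WT 6am peaks lay at 24 to 26 bp.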

How the data were processed

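ChIP-seq peaks and ChIP-exo borders of GR in GRdim liver at 6pm and 6am were compared, with the other GR and C/EBPβ lists beside them. Bowtie, HOMER and mm9 are named per the submitters' processing notes, while the sources used here give neither their roles and versions nor the peak threshold. Each deposited score belongs to 1 peak of a list made by the authors on a pool of 2 replicates, per the labels. Per the file headers, each deposited border has a tag count and the authors' RPM. Count over RPM was the same for all borders of a file and gave the library size. The sources used here do not give the ChIP-seq depth.

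Peaks were shared when they overlapped by at least 1 bp, and a peak was marked by a border centred within 100 bp of its centre. Shares carry Wilson and differences Newcombe 95% intervals, and tags carry exact Poisson intervals. Borders were paired with the nearest overlapping border of the same strand. The members and lists were chosen with earlier results of these data known. Named regions were the 5 highest-scoring of 6pm-only and of 6am-only peaks, the 5 shared regions with the best mean percentile, and the 5 with the largest gain and the 5 with the largest drop. Named borders were the 3 strongest in both libraries and in each alone. Alternatives were other overlaps, score and tag limits, lists of equal length, borders within 60 bp or on both strands, and another scaling of RPM. The planned motif shares and gene lists need an mm9 sequence and annotation and were not run. The 12 input and 2 RNA polymerase II samples were not analysed here. The code was tested on simulated data, in Python 3.11.15 with scipy 1.17.1, numpy 2.4.6, matplotlib 3.10.9 and pandas 2.3.3.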

Additional observations from a re-analysis of the deposited data

Results flagged for a closer look

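Borders on the mitochondrial genome, which entered no comparison, took 28.9% of the tags in listed borders of the GRdim 6pm library and 74.6% of those in the GRdim 6am library.

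The number of nuclear borders at 6pm over 6am was 2.57 in GRdim, with 34812 and 13552 borders, and 0.819 in WT, with 53788 and 65707 borders. The libraries were 1.38 times as large at 6pm as at 6am in GRdim and 0.774 times as large in WT. The difference between the genotypes was not tested, since each number comes from 1 pool.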

How the results depend on the processing

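Of 56 alternative values for 14 results, 26 lay within the 95% interval of the value reported and 29 moved outside it. Among those 29, GRdim minus WT, whose reported interval spans 0, changed sign. The remaining 1, the scaled RPM ratio, reversed. The share of 6pm peaks listed at 6am was 68.6% for scores of at least 3 and 70.8% with lists of equal length. That of 6am peaks listed at 6pm was 91.6% at an overlap of 100 bp, 93.9% with centres within 500 bp, 97.9% for scores of at least 3, 90.5% between the higher-scoring 50% of both lists and 70.8% at equal length. GRdim minus WT was 7.22 points at scores of at least 3 and -7.83 points at equal length. The rank correlation of the scores was 0.514 for scores of at least 3 in both lists. Of the 6pm-only peaks, a 6am border marked 20.5% within 60 bp and 4.77% on both strands, and a 6pm border 68.5% and 37.2%. A 6pm border marked 14.7% of the 6am-only peaks on both strands. At an RPM of at least 0.221, the 5th percentile of the 6am borders and a limit chosen after seeing the data, 6pm borders marked 61.8% of 6pm-only and 32.0% of 6am-only peaks, and the RPM ratio was 0.986. The ratio was 0.944 for the same start, 0.888 for at least 20 tags, 0.983 in shared regions and, reversed, 1.11 when scaled to borders outside GR peaks. Borders 24 to 26 bp apart marked 5.46% of 6pm peaks within 60 bp, 5.18% (6pm) and 6.84% (6am) with the closest borders, and 6.65% and 7.82% with at least 20 tags. With equal length, WT at 6am held 54.7% of the 6pm-only peaks, and C/EBPβ at 6pm lay at 91.2% of them; at an overlap of 100 bp it lay at 83.4%.

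No paired analysis was possible because each list is 1 pool of both replicates, and for the same reason no replicate was left out. A peak under the lowest score, or a border under the lowest tag count, is not listed. The motif and gene-list alternatives were not run.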

Other observations

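Distances were measured from the 6pm-only peaks to the 6am list and to the shared regions. The median distance of a 6pm-only peak to the nearest 6am centre was 51284 bp, and 26.7% had one within 10000 bp. A shared region lay within 10000 bp of 25.9% of the 6pm-only peaks and of 37.5% of the other shared regions. The 6am-only peaks had a 6pm centre at a median of 15122 bp, in the longer of the GRdim lists, and such distances depend on list length.

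The gain at 6pm was spread over the genome. The number of peaks at 6pm over 6am lay between 2.05 on chromosome 17, with 283 and 138 peaks, and 3.22 on chromosome X, with 29 and 9 peaks, over 20 chromosomes.

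At the 332 6pm-only peaks that neither untreated WT list held, 56.9% (51.6 to 62.1) had a border of the GRdim 6pm library and 10.2% (7.42 to 14.0) one of the GRdim 6am library.

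In WT, the 8633 peaks of 6pm without a 6am peak held a WT 6pm border in 64.8% and a WT 6am border in 56.3% of cases. For the 4482 GRdim peaks of that kind the shares in the GRdim libraries were 75.1% and 24.1%. The 6am libraries differed, with 65707 nuclear borders from 55.7 M tags in WT and 13552 from 31.6 M tags in GRdim. The part of this difference in the shares was not tested.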
